A study of Mus musculus with 6 samples.

Results

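The genes described here are 10 genes of the ATF4 amino acid response, Atf4, Atf5, Ddit3, Trib3, Asns, Mthfd2, Psat1, Phgdh, Shmt2 and Eif4ebp1, taken by their symbols in the array's annotation from 19057 annotated genes. All 10 had a probe detected on at least 2 of the 6 arrays and were among the 10538 genes tested. RNA came from cardiomyocyte-enriched cells of C57BL/6J mice, and 2 one-colour Illumina bead arrays were measured in each of 3 groups. The sham mice had sham surgery, with no vehicle or drug named. The TAC_DMSO mice had transverse aortic constriction (TAC), a surgical narrowing that loads the left ventricle with excess pressure, and DMSO vehicle. The TAC_BIX mice had the same constriction and BIX-01294, an inhibitor of the histone H3 lysine methyltransferases G9a and GLP, for 1 week from subcutaneous osmotic pumps. The labels name no age, sex or transgene, and do not say how many mice stand behind an array or how long the vehicle was given. No vehicle is named for sham, so constriction and vehicle cannot be told apart.

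ATF4 is a transcription factor of the integrated stress response. Kinases that sense amino acid shortage, unfolded protein, haem shortage or viral RNA phosphorylate the initiation factor eIF2alpha, which slows most translation but lets ATF4 mRNA be translated past its upstream open reading frames. ATF4 then raises genes for amino acid synthesis and uptake, serine and folate metabolism and tRNA charging, and genes that limit or end the response. Because ATF4 and its relative ATF5 are controlled at translation, their mRNA levels on an array are not a measure of their protein. In heart muscle this programme is known from mitochondrial and endoplasmic reticulum stress.

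Levels are log2 signals after background correction and quantile normalization, and differences are on the same log2 scale. A gene is given by its brightest probe unless a second probe is named, and levels of different probes are not set against each other. Between 16634 and 18501 of 45281 probes were detected per array, mean raw signals were 296 to 358 in sham and 391 to 439 after constriction, and replicate arrays correlated across probes with r = 0.988 to 0.992, against 0.974 to 0.989 between groups. Of 8 cardiomyocyte markers, the 7 with a probe were detected on all 6 arrays, with a summed signal of 125327 to 139209 in sham, 117297 to 121708 in TAC_DMSO and 125871 to 130056 in TAC_BIX. Genes of other cells were present as well. The summed signal of the 7 fibroblast markers ranged from 9513 to 9846 in sham, from 8757 to 13251 in TAC_DMSO and 12612 to 19250 in TAC_BIX, with Postn undetected on 4 arrays. That of the 6 measured leukocyte markers was 2213 to 3716, 3486 to 6965 and 3655 to 4730 in the same order, with Ptprc undetected on 5 arrays. The 4 measured markers of dividing cells summed to 25.4 and 179.5 in the sham arrays, where none was detected in replicate 1, to 421.0 and 132.8 in TAC_DMSO and to 116.9 and 195.5 in TAC_BIX. The 3 atrial markers summed to 5167 to 7229 in sham, 3164 to 6137 in TAC_DMSO and 478 to 520 in TAC_BIX. The 3 measured erythroid markers summed to 762 to 6905 in sham, 12561 to 29055 in TAC_DMSO and 1732 to 7765 in TAC_BIX. Slc4a1 was undetected on sham replicate 2 and TAC_BIX replicate 2. By the sum, both TAC_DMSO arrays were above the other 4, as for Eif4ebp1 below. The markers' median deviation from their own means did not follow this, at 0.49 in TAC_BIX replicate 1 and -0.08 in TAC_DMSO replicate 1. The 6 endothelial markers summed to 1213 to 1593 in sham, 1768 to 2189 in TAC_DMSO and 1785 to 2394 in TAC_BIX, with Kdr undetected on 3 arrays. Both sham arrays were thus below the other 4, as for Asns, Mthfd2 and Trib3 below. Of all genes, 24.9% were higher in TAC_DMSO than in sham without overlap, and 29.8% were so in TAC_BIX. Within both constricted groups, replicate 2 had the higher endothelial sum and Trib3 and the lower Asns and Mthfd2. The 5 pericyte and smooth muscle markers summed to 4467 to 4698 in sham, 4550 to 6553 in TAC_DMSO and 5512 to 5943 in TAC_BIX. Of these, Cnn1 was undetected on all 6 arrays, and Tagln was detected only on TAC_DMSO replicate 1 and TAC_BIX replicate 2. The part of these cells in the results below was not tested.

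Asns, which encodes asparagine synthetase, had the widest range of group means among the 10 genes. Its promoter carries the C/EBP-ATF element through which ATF4 is known to act on the human gene, followed there by the short element GTTACA. The RefSeq promoter of mouse Asns (GRCm38.p6, chr6:7693203-7693252, minus strand) is shown because both elements stand in it in that order, and the sequences of Trib3 (chr2:152344036-152344113, minus strand) and Psat1 (chr19:15925168-15925215, minus strand) because they share TGGTGCAA, a variant of the element. Capitals mark TGATGNAA on either strand, TGGTGCAA and GTTACA.
Asns: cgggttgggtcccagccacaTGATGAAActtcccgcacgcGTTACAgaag
Trib3: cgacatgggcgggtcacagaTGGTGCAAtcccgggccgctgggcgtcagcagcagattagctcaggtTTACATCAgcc
Psat1: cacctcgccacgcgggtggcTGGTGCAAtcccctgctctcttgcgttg
The first base of the element lay 23 bases before the annotated start in Asns, and TGGTGCAA began 33 bases before it in Trib3 and 136 before it in Psat1. Trib3 also held TGATGNAA on the opposite strand, from base 15 after the start. Promoters, from 250 bases before to 50 bases after a start, were in the table for 9 of the 10 genes, Eif4ebp1 being the gene without an entry. TGATGNAA, searched on both strands, stood in the promoters of 2 of these 9 genes and in 3.97% of 32817 mouse promoters. TGGTGCAA and GTTACA were chosen after the sequences were seen: the former stood in 2 of the 9 genes and 0.533% of all promoters, the latter in 1 and in 8.25%. The matches describe these windows only.

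**Figure D1:**
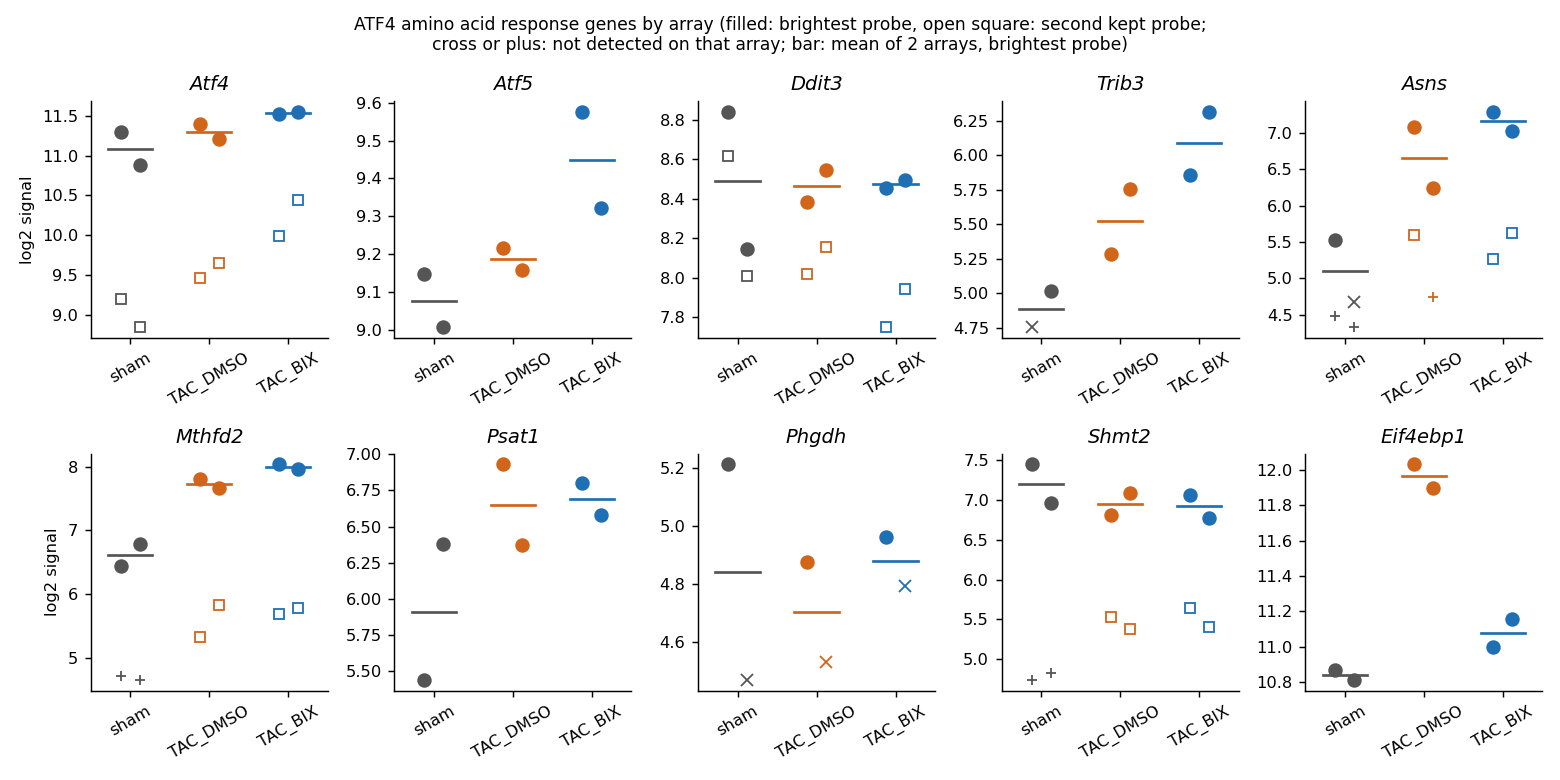
Log2 signal (vertical axis, a different scale in each panel) of the 10 genes on the 6 arrays, by group. Filled points are the brightest probe, open squares a second probe kept in the analysis, crosses and plus signs values not detected on that array, and bars the mean of 2 arrays. Asns and Mthfd2 lie lowest on both sham arrays, and Eif4ebp1 is highest on both TAC_DMSO arrays.

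Of the 10 genes, 3 were higher in constricted hearts given BIX-01294 than in sham, against 2.74% of all genes. These were Asns at 4.16-fold, Mthfd2 at 2.60-fold and Trib3 at 2.30-fold. Asns and Trib3 were each undetected on 1 sham array. On the authors' processed values the log2 differences were smaller, 0.61 for Asns, 0.67 for Mthfd2 and 0.26 for Trib3. In constricted hearts given vehicle, Eif4ebp1 passed as the 1 gene of the 10, at 2.18-fold over sham, against 0.209% of all genes higher. Between the drug and vehicle groups 0 of the 10 passed, as did 0% of all genes. Atf4 itself passed in none of the comparisons by its brightest probe, and neither did Atf5, Ddit3, Psat1, Phgdh or Shmt2. A gene passed at a Benjamini-Hochberg adjusted p under 0.05 over all 10538 genes, from limma on all 6 arrays. The p-values measure the spread between these arrays. In cells of mixed origin, a change in the share of a cell type and a change in RNA per cell cannot be told apart.

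The regulators come first. Atf4 measured 11.30 and 10.88 in the sham arrays, 11.39 and 11.21 in TAC_DMSO, and 11.52 and 11.55 in TAC_BIX. Both TAC_BIX arrays were above the other 4, while sham and TAC_DMSO overlapped. The group means were 11.09 ± 0.29, 11.30 ± 0.13 and 11.53 ± 0.02 (SD, n = 2 each). The difference of TAC_BIX from sham was 0.45 ± 0.20 (SE), a fold of 1.36 with a 95% interval of 0.990 to 1.88 (limma adjusted p = 0.201). That of TAC_DMSO from sham was 0.21 ± 0.20 and that of TAC_BIX from TAC_DMSO 0.23 ± 0.20 (adjusted p = 0.564 and 0.553).

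A second Atf4 probe gave the same order with wider steps. It measured 9.20 and 8.85 on the sham arrays, 9.47 and 9.65 in TAC_DMSO, and 9.99 and 10.44 in TAC_BIX, and none of the 3 groups overlapped. With it, Atf4 was 2.29-fold higher in TAC_BIX than in sham (difference 1.19 ± 0.22, adjusted p = 0.0284), while the differences of TAC_DMSO from sham (0.54 ± 0.22) and of TAC_BIX from TAC_DMSO (0.66 ± 0.22) did not pass (adjusted p = 0.209 and 0.169). The probes had the same sign in all 3 comparisons and differed in the call for TAC_BIX against sham. The second probe was examined after the data were seen. Of the 17 other settings, Atf4 passed for TAC_BIX against sham under 2, and reading the second probe was 1 of these.

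Atf5, a bZIP factor related to ATF4 and likewise controlled at translation, measured 9.15 and 9.01 on the sham arrays, 9.22 and 9.16 in TAC_DMSO, and 9.58 and 9.32 in TAC_BIX. The order of the groups was that of Atf4, without overlap, although sham replicate 1 and TAC_DMSO replicate 2 were nearly equal. TAC_DMSO differed from sham by 0.11 ± 0.18 (limma adjusted p = 0.754). The Atf5 difference of TAC_BIX from sham was 0.37 ± 0.18 (fold 1.29, 95% interval 0.973 to 1.72, adjusted p = 0.228).

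Ddit3 encodes CHOP, which is known to promote cell death when the stress response lasts. It measured 8.84 and 8.14 on the sham arrays, 8.39 and 8.55 in TAC_DMSO, and 8.45 and 8.50 in TAC_BIX. The sham arrays lay on either side of all 4 others, and the 3 group means fell within 0.03 of each other, the narrowest range of the 10 genes. TAC_BIX against sham gave a fold of 0.988 with a 95% interval of 0.667 to 1.46 (adjusted p = 0.973). A second Ddit3 probe measured 8.62 and 8.01 on the sham arrays, 8.02 and 8.16 in TAC_DMSO, and 7.75 and 7.94 in TAC_BIX, where its difference from sham was -0.47 ± 0.23 (adjusted p = 0.245).

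Trib3 encodes a pseudokinase that ATF4 and CHOP induce and that is known to restrain ATF4 in turn. It measured 4.76 and 5.02 on the sham arrays, 5.29 and 5.76 in TAC_DMSO, and 5.86 and 6.32 in TAC_BIX, and was undetected in sham replicate 1. The groups were stepwise and did not overlap, although TAC_DMSO replicate 2 and TAC_BIX replicate 1 lay close together. TAC_BIX exceeded sham by 1.20 ± 0.24 (adjusted p = 0.0328). TAC_DMSO differed from sham by 0.64 ± 0.24 and TAC_BIX from TAC_DMSO by 0.57 ± 0.24, which did not pass (adjusted p = 0.180 and 0.249). The raw signals behind these values were low, 113 to 118 in sham and 139 to 202 after constriction, and 2 other Trib3 probes were detected on 1 array each and left out.

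The enzymes follow in the order of their pathways. Phgdh and Psat1 encode the first enzymes of serine synthesis from a glycolytic intermediate. Phgdh was at the limit of detection, detected on 1 array of each group, and its values of 5.21 and 4.47 on the sham arrays, 4.88 and 4.53 in TAC_DMSO, and 4.96 and 4.79 in TAC_BIX overlapped in every comparison. Psat1 measured 5.44 and 6.38 on the sham arrays, 6.93 and 6.37 in TAC_DMSO, and 6.81 and 6.58 in TAC_BIX. Sham replicate 2 was just above TAC_DMSO replicate 2, and the SD of the sham arrays was 0.67. Psat1 differed from sham by 0.74 ± 0.33 in TAC_DMSO and by 0.78 ± 0.33 in TAC_BIX, folds of 1.68 and 1.72 (adjusted p = 0.233 and 0.181). The 95% interval of the TAC_BIX fold ran from 1.01 to 2.92.

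Shmt2 and Mthfd2 encode mitochondrial enzymes that pass a carbon unit from serine into the folate pool. Mthfd2, which is known to be low in most resting adult tissues, measured 6.45 and 6.79 on the sham arrays, 7.80 and 7.66 in TAC_DMSO, and 8.03 and 7.96 in TAC_BIX. The 3 groups did not overlap, and the step from sham was larger than the spread within any group. TAC_BIX exceeded sham by 1.38 ± 0.19 (adjusted p = 0.0195), and TAC_BIX differed from TAC_DMSO by 0.27 ± 0.19 (adjusted p = 0.463). TAC_DMSO differed from sham by 1.11 ± 0.19 without passing (adjusted p = 0.0544), but passed under 5 of 17 other settings (adjusted p = 0.0178 to 0.0407). Its second probe was undetected on both sham arrays and detected on all 4 others, and put TAC_BIX at least 1.69-fold over sham (adjusted p = 0.0323) and TAC_DMSO at least 1.52-fold over it (adjusted p = 0.0791). Such a bound sets the higher group against the lowest detected signal on each sham array. The adjusted p beside a bound belongs to the fitted difference, which uses the undetected sham values, and not to the bound.

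The probes of Shmt2 disagreed. The brighter one measured 7.45 and 6.96 on the sham arrays, 6.81 and 7.09 in TAC_DMSO, and 7.07 and 6.77 in TAC_BIX, with overlap in every comparison and a difference of TAC_BIX from sham of -0.29 ± 0.23 (adjusted p = 0.467). The second one was undetected on both sham arrays (4.74 and 4.83), measured 5.53 and 5.38 in TAC_DMSO and 5.65 and 5.41 in TAC_BIX, and put TAC_BIX at least 1.47-fold over sham (adjusted p = 0.0497). No direction is given for Shmt2, since it rests on which probe is read.

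Asns measured 5.52 and 4.68 in sham, undetected in replicate 2, 7.07 and 6.24 in TAC_DMSO, and 7.29 and 7.03 in TAC_BIX. Both sham arrays were below all others, and TAC_DMSO replicate 1 lay between the TAC_BIX arrays. In raw signals these were 132 and 109, 245 and 164, and 278 and 272. TAC_BIX exceeded sham by 2.06 ± 0.35, with a 95% interval of the fold of 2.36 to 7.32 (adjusted p = 0.0244). TAC_DMSO differed from sham by 1.55 ± 0.35, which did not pass (adjusted p = 0.0775), and TAC_BIX from TAC_DMSO by 0.50 ± 0.35 (adjusted p = 0.467). A second probe was undetected on both sham arrays and on TAC_DMSO replicate 2. It put TAC_BIX at least 1.38-fold over sham without passing (adjusted p = 0.0741), and the remaining Asns probe was detected on no array.

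Eif4ebp1 encodes 4E-BP1, which holds back cap-dependent translation and is regulated by mTORC1 and by ATF4. It measured 10.87 and 10.81 on the sham arrays, 12.03 and 11.90 in TAC_DMSO, and 10.999 and 11.16 in TAC_BIX. Both TAC_DMSO arrays were above all 4 others, and TAC_BIX lay just above sham. TAC_DMSO exceeded sham by 1.13 ± 0.17 (adjusted p = 0.0499). TAC_BIX was 1.85-fold lower than TAC_DMSO, a difference of -0.89 ± 0.17 that did not pass (adjusted p = 0.0671), and differed from sham by 0.24 ± 0.17 (fold 1.18, 95% interval 0.898 to 1.55, adjusted p = 0.412).

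**Figure D2:**
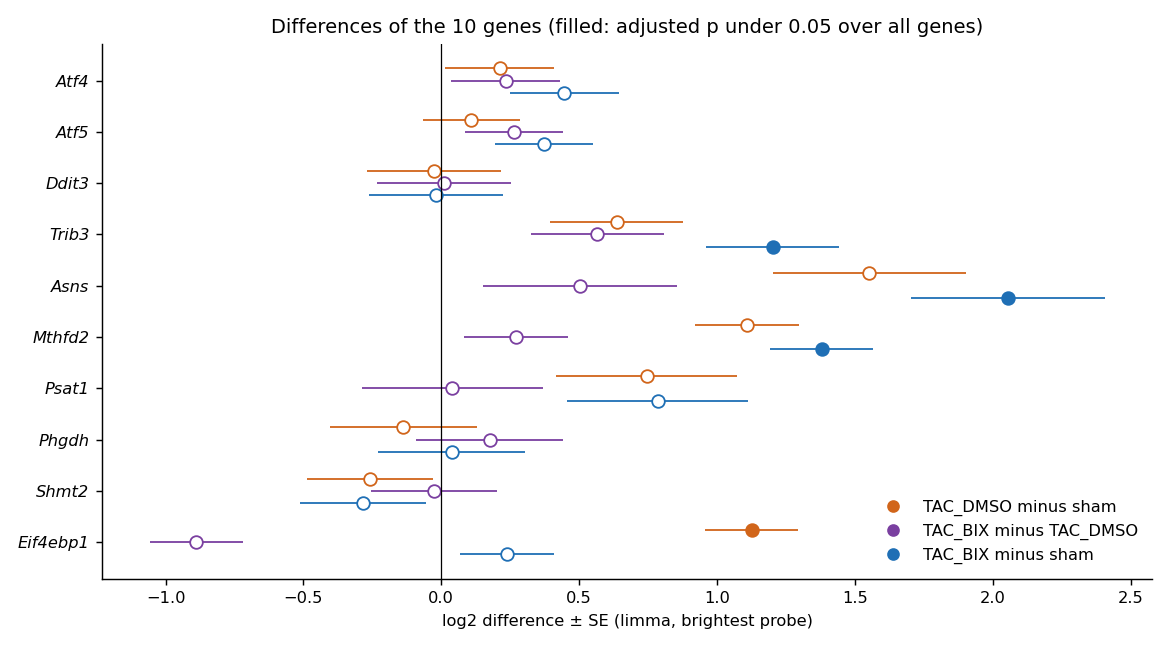
Log2 differences (horizontal axis) with their standard errors for the 10 genes in the 3 comparisons. Filled points passed an adjusted p of 0.05 over all 10538 genes: Asns, Mthfd2 and Trib3 for TAC_BIX minus sham and Eif4ebp1 for TAC_DMSO minus sham.

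The first comparison asks how constriction with vehicle differed from sham. Of the 10 genes, 1 rose, against 0.209% of all genes, and 0 fell, against 0.199%, or 0.408% in either direction. The groups did not overlap for 5 genes that were higher, against 24.9% of all genes, and for 0 that were lower, against 29.0%. The 5 were Atf5, Trib3, Asns, Mthfd2 and Eif4ebp1. The median difference of the 10 genes was 0.42, beside -0.01 over all genes. Trib3, Asns, Mthfd2 and Eif4ebp1, all higher, had an unadjusted p under 0.05, that is 4 genes against 22.4% of all genes, or 10.8% in that direction. The call of Eif4ebp1 was lost without any 1 of the 6 arrays (adjusted p = 0.0512 to 0.181) while its difference stayed between 1.06 and 1.19. TAC_DMSO replicate 1 had the higher Asns and Psat1 of its group and also the highest summed leukocyte and dividing-cell signals of all arrays. Without it the differences of Asns and Psat1 from sham were 1.13 and 0.47. They also moved with the sham arrays. The Asns difference was 1.97 without sham replicate 1 and 1.13 without sham replicate 2, and that of Psat1 was 0.27 and 1.22. The part of other cells in these values was not tested.

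For the drug itself, the constricted hearts with BIX-01294 were set against those with vehicle, and 0 of the 10 genes passed, as did 0% of all genes. By unadjusted p under 0.05, Trib3 was higher, against 9.14% of all genes, and Eif4ebp1 lower, against 10.7%, together 2 genes against 19.8%. The groups did not overlap for 4 higher genes, Atf4, Atf5, Trib3 and Mthfd2, against 28.7%, and for 1 lower gene, Eif4ebp1, against 23.0%. The median difference was 0.20, beside 0.03 over all genes. Eif4ebp1 passed under 6 of 17 other settings, with adjusted p of 0.00817 to 0.0385 there, among them the authors' processed values (-0.89, adjusted p = 0.0202). It did not pass in any fit that left out an array (adjusted p = 0.105 to 0.388).

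TAC_BIX against sham sets both constriction and the drug against neither, so the 2 cannot be told apart in it. It shares the sham arrays with the first comparison and the TAC_BIX arrays with the second. Of the 10 genes 3 rose, Asns, Mthfd2 and Trib3, against 2.74% of all genes, and 0 fell, against 3.91%, or 6.65% in either direction. With Psat1, 4 were higher at an unadjusted p under 0.05, against 26.4% of all genes, or 13.1% in that direction. The groups did not overlap for 7 higher genes, against 29.8%, and for 0 lower ones, against 28.6%. Besides the 3 called genes these were Atf4, Atf5, Psat1 and Eif4ebp1. The median difference was 0.41, beside -0.00 over all genes. All 3 calls were lost without any 1 of the sham or TAC_BIX arrays (adjusted p = 0.0563 to 0.253) and held without either TAC_DMSO array. On the authors' processed values the differences shrank to 0.61 for Asns, 0.67 for Mthfd2 and 0.26 for Trib3, the last of which then did not pass (adjusted p = 0.103). Trib3 also did not pass with log2 quantile normalization without background correction (0.40, adjusted p = 0.0684), and neither Trib3 nor Asns passed without the detection filter (adjusted p = 0.0652 and 0.0591).

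**Figure D3:**
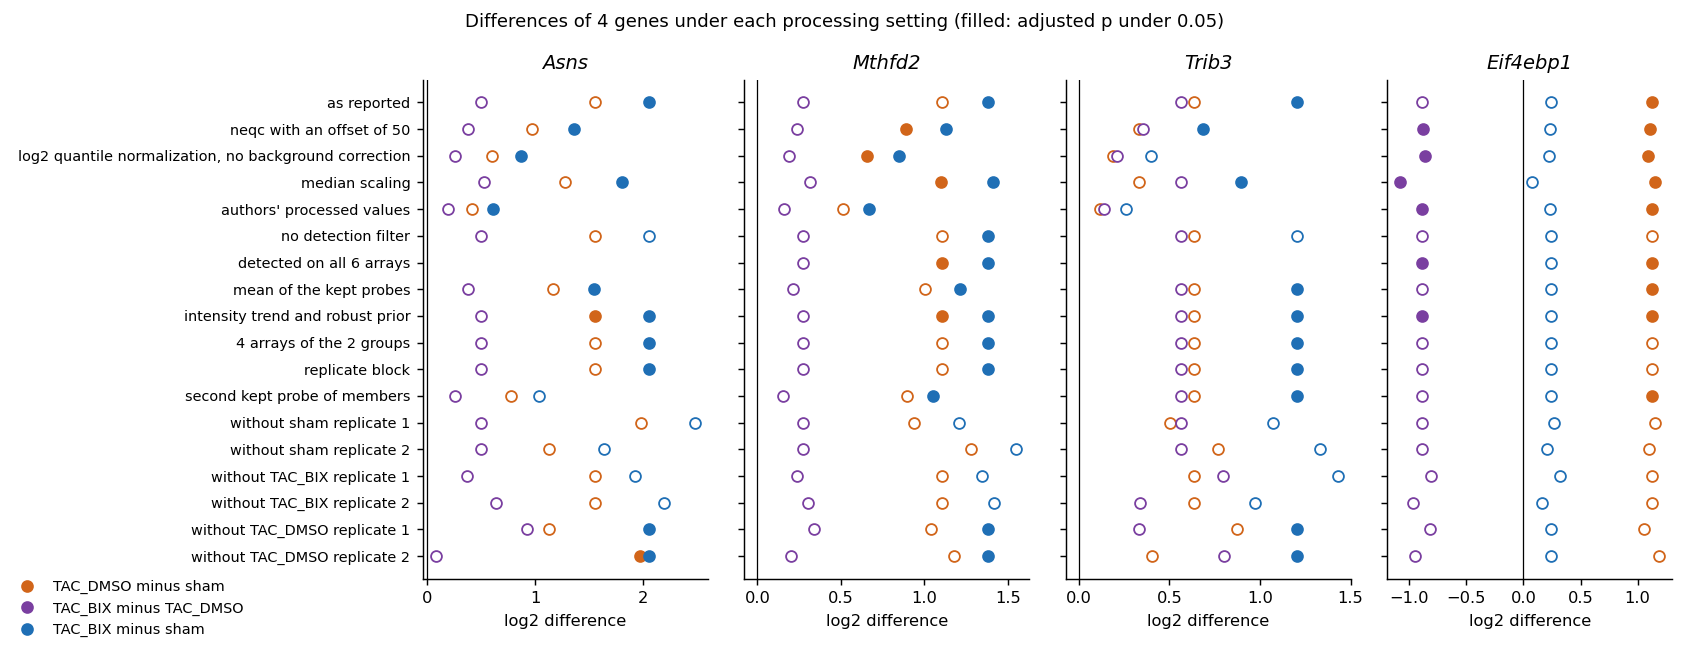
Log2 differences (horizontal axis) of Asns, Mthfd2, Trib3 and Eif4ebp1 in the 3 comparisons under the reported and 17 other settings (rows). Filled points passed an adjusted p of 0.05. The sign of each difference is the same in every setting shown, and the 4 reported calls are lost in each fit without an array of the groups compared.

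The rest of the pathway was taken from 8 related lists holding 83 genes, of which 57 were tested. In TAC_DMSO against sham 0 of the 57 passed, with 7 higher and 9 lower at an unadjusted p under 0.05, against 10.8% and 11.6% of all genes. In TAC_BIX against TAC_DMSO 0 passed, with 6 higher and 2 lower, against 9.14% and 10.7%. In TAC_BIX against sham 2 rose and 0 fell, against 2.74% and 3.91% of all genes, and 9 were higher and 5 lower at an unadjusted p under 0.05, against 13.1% and 13.3%. The 2 of 57 is near the share over all genes. The median difference of the 57 was -0.04 there, beside 0.41 for the 10 genes.

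Of the eIF2alpha kinases and phosphatase genes, 5 of 8 were tested and 0 passed. Eif2ak2, the interferon-induced kinase PKR, followed the shape of Eif4ebp1. It measured 7.26 and 7.40 in sham, 8.34 and 8.45 in TAC_DMSO, and 7.18 in both TAC_BIX arrays, so that both TAC_DMSO arrays were above all others. It differed by 1.07 ± 0.17 between TAC_DMSO and sham (adjusted p = 0.0539) and by -1.22 ± 0.17 between TAC_BIX and TAC_DMSO (adjusted p = 0.0652). Ppp1r15a encodes GADD34, the ATF4-induced phosphatase subunit that ends the response. It measured 9.28 and 9.15 on the sham arrays, 8.58 and 8.45 in TAC_DMSO, and 8.65 and 8.78 in TAC_BIX, opposite in direction to Asns, and differed from sham by -0.70 ± 0.17 in TAC_DMSO and -0.50 ± 0.17 in TAC_BIX (adjusted p = 0.0862 and 0.115). Impact, an inhibitor of the kinase GCN2, differed by -0.61 ± 0.18 between TAC_DMSO and sham, with probes that disagreed in sign (adjusted p = 0.113). Eif2ak3 and Eif2ak4, the kinases PERK and GCN2, had no probe that was kept.

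Of 12 ATF4 partners and stress regulators, 10 were tested and 0 passed. Chac1, a glutathione-degrading enzyme induced by ATF4, measured 8.10 and 7.70 on the sham arrays, 9.25 and 8.57 in TAC_DMSO, and 8.24 and 8.59 in TAC_BIX, and differed by 1.00 ± 0.27 between TAC_DMSO and sham (adjusted p = 0.105). Cebpg, the bZIP partner of ATF4, differed by 0.57 ± 0.19 in the same comparison (adjusted p = 0.138). Ddit4, an mTORC1 inhibitor also known as REDD1, ran the other way, with 9.40 and 9.15 on the sham arrays, 8.57 and 7.22 in TAC_DMSO, and 7.87 and 7.04 in TAC_BIX. Its difference of TAC_BIX from sham was -1.82 ± 0.44 (adjusted p = 0.0519), with a wide spread inside both constricted groups. Nfe2l2, the antioxidant regulator NRF2, differed by 0.67 ± 0.23 between TAC_BIX and TAC_DMSO (adjusted p = 0.179).

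Of 11 amino acid transporter genes 6 were tested and 0 passed. In TAC_BIX against sham, 3 of the 6 differences were above 0 and 3 below. Slc1a4, a carrier of neutral amino acids, was undetected on both sham arrays and at least 1.42-fold higher in TAC_BIX (adjusted p = 0.0944). Slc43a1, undetected on TAC_DMSO replicate 2, differed by -0.59 ± 0.19 between TAC_DMSO and sham (adjusted p = 0.135). Of 13 other serine, glycine and one-carbon enzymes 7 were tested and 0 passed. Tyms, the thymidylate synthase of dividing cells, measured 4.75 (undetected) and 5.79 on the sham arrays, 7.33 and 5.87 in TAC_DMSO, and 5.85 and 6.39 in TAC_BIX, the same order of arrays within TAC_DMSO as the dividing-cell markers. Aldh1l2, a mitochondrial folate enzyme, differed from sham by -0.72 ± 0.25 in TAC_DMSO and -0.71 ± 0.25 in TAC_BIX (adjusted p = 0.153 and 0.125), a sign opposite to that of Mthfd2.

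Of 12 other amino acid enzymes 4 were tested and 0 passed. Gpt2, the mitochondrial alanine aminotransferase, differed by -1.04 ± 0.23 between TAC_DMSO and sham (adjusted p = 0.0764). Of 13 genes of the aminoacyl-tRNA synthetase list 12 were tested and 0 passed. Their median differences were -0.04 for TAC_DMSO minus sham, 0.13 for TAC_BIX minus TAC_DMSO and 0.03 for TAC_BIX minus sham, and the smallest p among them was that of Eprs, the glutamyl-prolyl-tRNA synthetase, at 0.76 ± 0.22 between TAC_BIX and sham (adjusted p = 0.0805). Of 3 genes related to Eif4ebp1 or binding the cap 2 were tested and 0 passed. Eif4ebp2, a related translation repressor, measured 8.04 and 8.14 on the sham arrays, 7.91 and 8.21 in TAC_DMSO, and 8.94 and 8.67 in TAC_BIX. It was high on both TAC_BIX arrays only, where Eif4ebp1 was high on both TAC_DMSO arrays, and differed by 0.75 ± 0.19 between TAC_BIX and TAC_DMSO (adjusted p = 0.101).

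All 11 genes of the other arms of the unfolded protein response were tested. In TAC_BIX against sham 2 rose, Calr, the chaperone calreticulin, by 1.26 ± 0.25 (2.39-fold, adjusted p = 0.0328) and Pdia4, a disulfide isomerase, by 1.18 ± 0.28 (2.27-fold, adjusted p = 0.0484). Calr measured 6.35 and 6.43 on the sham arrays, 7.98 and 7.61 in TAC_DMSO, and 7.32 and 7.98 in TAC_BIX, so both constricted groups were above sham. The luminal chaperones Hspa5 and Hsp90b1 were not among them and differed by -0.67 ± 0.24 and -0.69 ± 0.20 between TAC_DMSO and sham (adjusted p = 0.163 and 0.120). The calls of Calr and Pdia4 were lost without either sham array or TAC_BIX replicate 2 (adjusted p = 0.100 to 0.317), that of Pdia4 also without TAC_BIX replicate 1 (0.0954), and both with the authors' processed values (differences of 0.56 and 0.43, adjusted p = 0.0730 and 0.0937). Both were also lost without the detection filter (adjusted p = 0.0680 and 0.0965), and Pdia4 with log2 quantile normalization (0.0596).

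**Figure D4:**
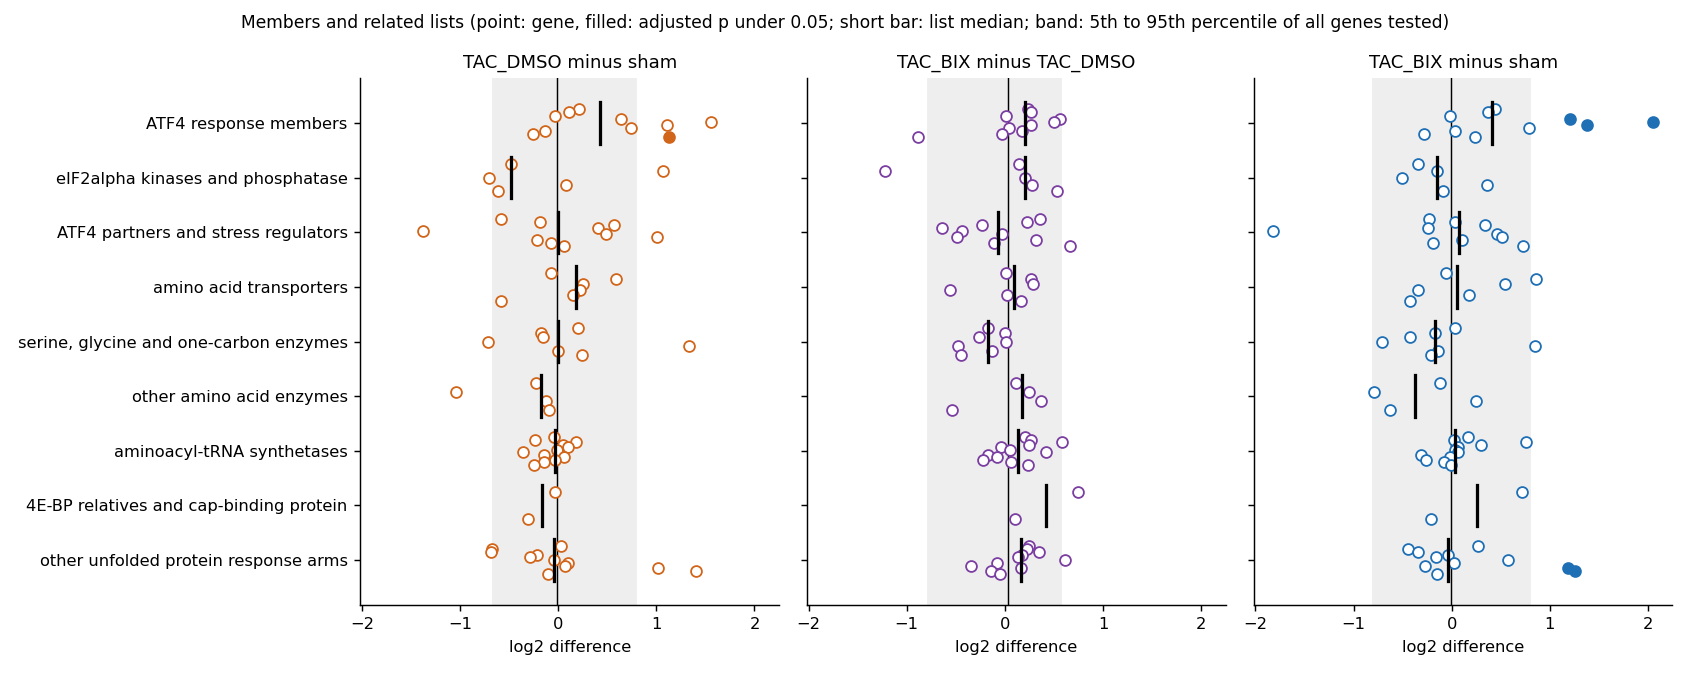
Log2 differences (horizontal axis) of the 10 genes and of 8 related lists in the 3 comparisons. Points are genes, filled at an adjusted p under 0.05, short bars list medians, the line the median and the band the 5th to 95th percentile of all 10538 genes. For TAC_BIX minus sham, the 3 filled points of the top row lie to the right of the band, with Calr and Pdia4 in the bottom row.

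The genes most like Asns over the 6 arrays, by the root mean square difference of values centred on each gene's mean, were Mybpc2, Hip1, Serpinb1c, Ace and Cygb, at 0.31 to 0.34, against a median of 0.97 over all genes. The closest to Atf4 were Etfrf1, Chn2, Lrfn3, Fam216a and Hoxd11, at 0.06 to 0.07, but Atf4 varied little and 2686 genes lay within 0.25 of it.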

How the data were processed

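Per the labels, RNA was extracted with Trizol, cleaned and amplified to biotinylated cRNA, and each of the 6 samples was measured on 1 Illumina array. The deposited signal table holds bead intensity per probe, not normalized between arrays, with the authors' detection p-value for each probe. A deposited second table holds the authors' processed log2 values, which share 1 distribution over all arrays with a median of 7.19. Its scale was read from the values, and how its background was treated is not given in the sources used here. GenomeStudio 2011.1, lumi and limma are named per the submitters' processing notes, without their roles. The labels do not say whether the samples of a group came from different mice.

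From the intensities, limma 3.58.1 in R 4.3.3 estimated the background from the detection p-values, added an offset of 16, quantile-normalized and took log2 (neqc). Probes detected at p under 0.05 on at least 2 of 6 arrays were kept, 19273 of 45281, and each of 10538 genes was read by the brightest of its kept probes over all arrays. Of all probes 34885 had 1 gene symbol, 18 had several and 10378 had none, and 34807 matched the RefSeq gene table (GRCm38.p6) by Entrez ID, with 0 symbols changed. lmFit and eBayes fitted 1 mean per group on all 6 arrays, two-sided, with Benjamini-Hochberg adjustment over all genes. Where a group was undetected on both arrays, "at least" folds set the brighter group's mean against, per array, the higher of the lowest detected signal and the probe's own. The adjusted p printed with such a fold is that of the fitted difference. The fit was tested on simulated data.

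The 10 genes and all lists were chosen with earlier results of these data known. All 10 are named. From each related list, up to 4 genes of smallest p per comparison and any called could be named, and the 5 genes most like Asns and Atf4. The alternatives were the background, scaling, filter, probe and model settings, a replicate block and leaving out each array. The second-probe setting was chosen after seeing the data. Whether replicate numbers pair the samples is not known. Same-numbered arrays had deviations correlated at -0.24 to 0.09, which cannot decide it with so few arrays per group. Only the fit with the replicate block treated them as paired.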

Additional observations from a re-analysis of the deposited data

How the results depend on the processing

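In fits that left out 1 array, called genes numbered 0 to 166 for TAC_DMSO minus sham, 0 to 6 for TAC_BIX minus TAC_DMSO and 0 to 738 for TAC_BIX minus sham, called members 0 to 1, 0 to 0 and 0 to 3, member medians ran from 0.29 to 0.42, 0.10 to 0.32 and 0.27 to 0.46, and called related genes numbered 0 to 0, 0 to 0 and 0 to 4. Asns passed for TAC_DMSO minus sham without TAC_DMSO replicate 2 (adjusted p = 0.0495). The cause of the changes below was not tested, except that fewer arrays or more genes tested are part of some settings.

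For TAC_DMSO minus sham, with 43 genes called, 1 of the 10 members and 0 related genes, the counts were 275, 2 and 4 with an offset of 50, 284, 2 and 3 with log2 quantile normalization without background correction, 151, 2 and 2 with median scaling, 134, 2 and 2 for probes detected on all 6 arrays, and 426, 3 and 5 where the prior was robust and followed intensity. The 2 members were Eif4ebp1 and Mthfd2, and the robust prior added Asns. The authors' processed values called 93 genes and 1 related gene, with a member median of 0.16, and the mean of the kept probes called 1 related gene. No filter called 1 gene and 0 members. The 4 arrays of the groups compared called 0 genes and 0 members, as did the fit with the replicate number as a block (0 and 0). For TAC_BIX minus TAC_DMSO, with 0, 0 and 0, the counts were 563, 1 and 2 with an offset of 50, 709, 1 and 3 with log2 quantile normalization, 380, 1 and 1 with median scaling, 642, 1 and 2 with the authors' values, 359, 1 and 1 for probes detected on all arrays, and 699, 1 and 3 with that prior; the member was Eif4ebp1, lower each time. For TAC_BIX minus sham, with 701, 3 and 2, median scaling called 1294 genes and 8 related genes, no filter 369, 1 and 0, the robust prior 1136 genes and 6 related genes, and the replicate block 253 genes and 1 related gene, which was lower, while Calr and Pdia4 did not pass (adjusted p = 0.0664 and 0.0930). Related genes called there were 6 with an offset of 50, 5 with log2 quantile normalization and 4 with the 4 arrays compared. Probes detected on all arrays called 1 member, since Asns and Trib3 were undetected on 1 array, and the second probes gave a member median of 0.77. Over the settings other than leaving out 1 array, called members numbered 1 to 4 for TAC_BIX minus sham. Median scaling moved the median of all genes from -0.00 to -0.14 in TAC_BIX minus sham, and the called genes from 289 higher and 412 lower to 369 and 925. Of the 43 genes called for TAC_DMSO minus sham 22 were higher, and 90 of 151 with median scaling.

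Signs turned only for Shmt2, Ddit3, Phgdh and Psat1, none of them called by its brightest probe. Shmt2 turned with the mean of its probes (0.21, 0.024 and 0.23 for TAC_DMSO minus sham, TAC_BIX minus TAC_DMSO and TAC_BIX minus sham) and with the second probe (0.67, 0.075 and 0.75), and ran from -0.17 to 0.12 without 1 array for TAC_BIX minus TAC_DMSO. Ddit3 ran from -0.38 to 0.32, -0.070 to 0.089 and -0.37 to 0.33 without 1 array in the same order, and turned for TAC_BIX minus TAC_DMSO with the mean of its probes (-0.12) and the second probe (-0.24) and for TAC_BIX minus sham with median scaling (0.010). Phgdh ran from -0.51 to 0.23 without 1 array for TAC_DMSO minus sham and from -0.33 to 0.41 for TAC_BIX minus sham, and turned with median scaling for TAC_BIX minus TAC_DMSO (-0.054) and TAC_BIX minus sham (-0.50). Psat1 ran from -0.24 to 0.32 without 1 array for TAC_BIX minus TAC_DMSO. Trib3, Asns and Phgdh were each undetected on 1 sham array, where the lowest detected log2 signals were 4.96 and 4.99, so their sham levels are not well above background there.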
